A study of Mus musculus with 6 samples.

Results

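Potassium channels set the resting voltage of arterial muscle, and 8 of their genes were followed here in the aorta of mice labelled WT or as lacking the microRNA miR-21. They were Kcnj8 and Abcc9 of the ATP-sensitive channel, Kcnma1 and Kcnmb1 of the large calcium-activated channel, Kcna5, Kcnab1 and Kcnq5 of the voltage-gated channels, and the two-pore channel gene Kcnk3. All 8 were found by symbol among the 22956 genes of the deposited table, and all 8 passed the filter on low counts. Kcnj8 was chosen from the lower genes of this same knockout comparison that had the smallest p. The other 7 were chosen by function, with the results of that comparison known. The differences between genotypes in these 8 genes are therefore given as a description, with no test.

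Messenger RNA was sequenced from 6 samples of C57B6 mice whose labels name aortic smooth muscle cells. All were 30 weeks old and had been on western diet, a fatty feed, for 20 weeks. The 3 WT samples had the genotype WT/mTmG/Myh11ERT2, and the 3 samples labelled miR21 -/- (knockout) had miR-21fl/flmTmG/Myh11ERT2. Both genotypes name the mTmG colour reporter and Myh11ERT2, and Myh11 is the smooth muscle myosin gene. The second has fl/fl after miR-21, which as a rule marks a gene that is removed only where a recombinase acts. The labels used here do not name the recombinase, nor say whether an inducing drug was given, whether the samples are separate animals or whether animals were pooled, so the spread between samples may be technical. The level of miR-21 itself was not analysed here.

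Potassium leaving the cell through open channels makes the inside of a muscle cell more negative, which closes voltage-gated calcium channels and relaxes the vessel. Kcnj8 encodes the pore of the vascular ATP-sensitive channel and Abcc9 its sulphonylurea receptor subunit, which senses nucleotides and is the target of channel-opening drugs. Kcnma1 encodes the pore of the large-conductance channel opened by voltage and calcium, and Kcnmb1 the accessory subunit that raises its calcium sensitivity in smooth muscle. Kcna5 and Kcnq5 encode voltage-gated pores and Kcnab1 a cytoplasmic subunit of the Shaker-type channels. Kcnk3 encodes an acid-sensitive background channel.

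The seed of miR-21 and its matches are shown because the labelled genotypes differ in this microRNA. In the mature sequence from RefSeq (GRCm38.p6) capitals mark the seed, bases 2 to 8. In the other lines capitals mark the match ATAAGCT, or TAAGCTA in the second Kcne4 line, within the 3′ untranslated region (UTR) of the transcript that GENCODE M21 ranks as principal (GRCm38).
mmu-miR-21a-5p: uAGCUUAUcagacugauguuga
Kcnmb1, chr11:33973527-33973556, plus strand: ttaaaatgcaaaacgATAAGCTttctcttg
Kcnq5, chr1:21400508-21400537, minus strand: tgccatttaaattatATAAGCTttaactaa
Kcne4, chr1:78818703-78818732, plus strand: gaattagctgggagtATAAGCTatgacctc
Kcne4, chr1:78818164-78818193, plus strand: taggaggtagctccgTAAGCTAcacttgac
Of the 8 members, 2 held ATAAGCT, 1 time each: Kcnmb1 at base 3178 of a 3277-base 3′ UTR and Kcnq5 at base 1641 of a 3760-base 3′ UTR. The match was not found in the 3′ UTRs searched for Kcnj8 (768 bases), Abcc9, Kcnma1, Kcna5, Kcnab1 and Kcnk3. Of all 15278 genes whose 3′ UTR was searched, 7.07% held it. The median 3′ UTR searched had 991 bases, far fewer than those of Kcnmb1 and Kcnq5, and the share was not adjusted for length. Kcne4, an auxiliary subunit of voltage-gated channels and not a member, is shown because its values are described below. Its match continues into an A, as does that of the two-pore channel gene Kcnk6.

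Kcnj8 and Abcc9 are neighbours on the minus strand of chromosome 6 (mm10), and their promoters are shown because the genes encode the pore and the receptor of 1 channel. Kcnj8 spans 142564837 to 142571614 and Abcc9 142587862 to 142702315, with 16247 bases and no annotated gene wholly between them. The 250 bases before each RefSeq start (GRCm38.p6, minus strand, 5′ to 3′) are shown with capitals marking CANNTG and GGGCGG on either strand, and the marked runs do not overlap.
Kcnj8, chr6:142571615-142571864: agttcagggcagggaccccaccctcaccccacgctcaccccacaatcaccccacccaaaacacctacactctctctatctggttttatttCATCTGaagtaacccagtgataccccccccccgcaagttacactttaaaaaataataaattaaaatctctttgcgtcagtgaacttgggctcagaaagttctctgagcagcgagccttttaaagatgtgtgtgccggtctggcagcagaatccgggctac
Abcc9, chr6:142702275-142702524: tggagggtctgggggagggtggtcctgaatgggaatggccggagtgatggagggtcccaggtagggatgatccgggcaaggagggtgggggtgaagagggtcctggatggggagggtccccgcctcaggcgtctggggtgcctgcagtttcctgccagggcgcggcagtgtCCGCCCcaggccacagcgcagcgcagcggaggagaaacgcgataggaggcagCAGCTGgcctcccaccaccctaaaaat
The windows searched ran 50 bases further, past the start. The Kcnj8 window had 53.3% G and C and 9 CpG pairs, and the Abcc9 window 65.7% and 16, against medians of 52.7% and 7 over the 32851 promoter windows of the table. GGGCGG was found 1 time in the Abcc9 window and not in the Kcnj8 window, where 35.7% of all windows hold it, and CANNTG was found 1 time in each, where 72.3% hold it. The CArG box, the site of serum response factor, was in none of the 10 windows listed for 7 members, against 1.63% of all windows. TGACGTCA (1.79% of all windows) was likewise not found, and TATAAA (13.6%) was in 1 window, of Kcnab1.

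The total of estimated counts per library ran from 37787465 to 154384307, the deepest being WT 3. Smooth muscle genes were abundant: Myh11 lay at 5424 to 9455 and Acta2 at 9855 to 15767 CPM (counts per 1000000 counts of the library, with TMM scaling) over the 6 libraries. Of 9 endothelial markers, 4 (Cdh5, Kdr, Cldn5 and Egfl7) were under 1 CPM in every library. Pecam1, another of them, lay at 52.9 to 63.6 CPM. Of 9 pericyte markers, Higd1b and Vtn were under 1 CPM in every library, while the summed level was 3580 to 4452 CPM in WT and 4002 to 4803 CPM in the knockout, most of it from Rgs5 and Cspg4. Adventitial fibroblast markers (9 of 9 measured) summed to 6565, 2940 and 5867 CPM in WT 1, 2 and 3 and to 5343, 1286 and 1813 CPM in knockout 1, 2 and 3, so WT 1 and knockout 1 were the highest of their groups and the groups overlapped. Most of the adventitial sum came from Lum (706 to 4105 CPM) and Dcn (484 to 2005.5 CPM). In such bulk samples fewer cells of a type and less RNA per cell cannot be told apart.

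Per length of annotated exon, the members differed in level by a wide margin. Kcnmb1 was the highest at 85.3 ± 9.63 CPM per kb (SD, n = 6 libraries of both genotypes), followed by Abcc9 at 65.2 ± 5.15, Kcnj8 at 31.1 ± 6.57 and Kcnab1 at 27.4 ± 5.66. Kcnk3 lay at 7.50 ± 1.98 and Kcnma1 at 7.13 ± 0.788 CPM per kb, and Kcnq5 and Kcna5 were the lowest at 1.50 ± 0.187 and 1.07 ± 0.241. The ranges over libraries lay apart between Abcc9 and Kcnj8, between Kcnab1 and Kcnk3 and between Kcnma1 and Kcnq5. They overlapped for Kcnmb1 and Abcc9, for Kcnj8 and Kcnab1, for Kcnk3 and Kcnma1 and for Kcnq5 and Kcna5. Within single libraries, Kcnmb1 was above Abcc9 in 5 of 6, and Kcnq5 above Kcna5 in 5 of 6. Kcnj8 was above Kcnab1 in 4 of 6, and Kcnk3 above Kcnma1 in 4 of 6. Among the 43 potassium channel genes tested, Kcnmb1, Abcc9, Kcnj8 and Kcnab1 ranked 1, 2, 4 and 5. The third rank was held by Kcnh2. The order of Kcnj8 and Kcnab1, and that of Kcnk3 and Kcnma1, turned with the gene length used. With the longest annotated transcript in place of all annotated exons, Kcnab1 was at 53.8, Kcnma1 at 10.01 and Abcc9 at 72.8 CPM per kb.

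**Figure D1:**
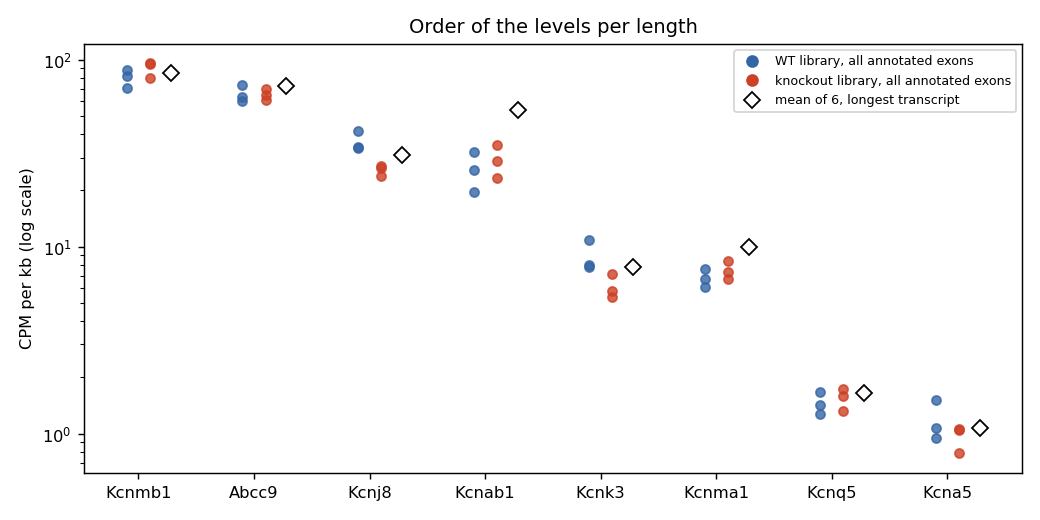
Level of the 8 members in CPM per kb of annotated exon, on a log axis, with 1 point per library (blue WT, red knockout) and a diamond for the mean of all 6 with the longest transcript as the length. Kcnmb1 and Abcc9 are at the top, Kcnq5 and Kcna5 at the bottom, and the diamond departs most from the points for Kcnab1.

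The ATP-sensitive channel differed between genotypes in its pore gene, while its receptor gene overlapped. Kcnj8 reached 106, 87.1 and 86.0 CPM in WT 1, 2 and 3, against 67.2, 60.9 and 68.7 CPM in knockout 1, 2 and 3. All knockout libraries thus lay below all WT libraries, as they did in 5.60% of the 16654 genes tested, and WT 1 was the highest. Kcnj8 averaged 92.9 ± 11.05 CPM over the WT libraries and 65.6 ± 4.11 CPM over the knockout libraries (SD, n = 3 each), so that the knockout mean was 70.6% of the WT mean. On the log2 scale the knockout minus WT difference was -0.50 ± 0.10 (SE), and it lay between -0.56 and -0.40 when each library was left out in turn. These values rest on 2507 to 13251 estimated counts per library.

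Abcc9 had 612, 527 and 503 CPM in WT 1, 2 and 3, against 509, 583 and 540 CPM in knockout 1, 2 and 3. The groups overlapped, with WT 1 again the highest. Its log2 fold change was -0.01 ± 0.10 (SE), and it turned sign to 0.08 without WT 1, to 0.03 without knockout 1 and to 0.0083 with limma-voom. The antisense gene 5330439B14Rik shares 158 exon bases with Abcc9 and was at 0.886 to 1.61 CPM. Whether counting used strand was not given in the sources used here, so reads of such overlaps cannot be told apart.

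The ratio of receptor to pore within a library does not depend on library size. Abcc9 per Kcnj8, in CPM per kb, was 1.76, 1.84 and 1.78 in WT 1, 2 and 3, against 2.31, 2.91 and 2.39 in knockout 1, 2 and 3. The WT ratios lay close together and all knockout ratios lay above them, with means of 1.80 ± 0.0421 and 2.54 ± 0.327 (SD, n = 3 each). The ratio uses the Kcnj8 values by which the gene was chosen, so it is a description too. The other subunits that can form ATP-sensitive channels were far lower: Kcnj11 averaged 0.769 ± 0.283 CPM over WT and 1.14 ± 0.0959 CPM over knockout libraries, and Abcc8 0.441 ± 0.103 and 0.252 ± 0.131 CPM (SD, n = 3 each). Neither passed edgeR's quasi-likelihood test (adjusted p = 0.859 and 0.857), and both were named after their values were seen.

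**Figure D2:**
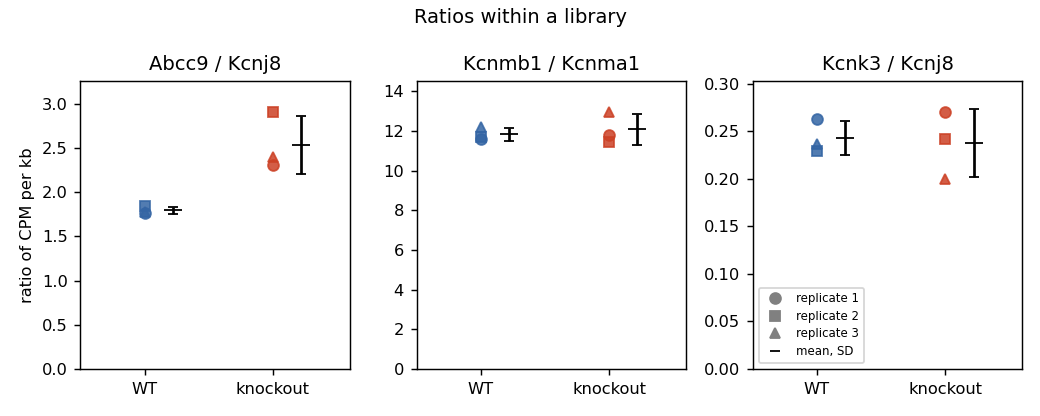
Ratios of CPM per kb within each library for Abcc9 over Kcnj8, Kcnmb1 over Kcnma1 and Kcnk3 over Kcnj8, with symbols for replicates and the mean with SD beside them. The Abcc9 to Kcnj8 ratio is 1.76 to 1.84 in WT and 2.31 to 2.91 in the knockout, while the genotypes overlap in the other ratios.

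The other genes near Kcnj8 had overlapping groups. Of the 10 other tested genes within 1000000 bases on either side, Abcc9 among them, 0 had all knockout libraries below all WT (5.60% over all genes) and 0 had them above (6.48% over all genes). Their log2 fold changes ran from -0.43 to 0.17, with a median of -0.02. With only 10 genes, counts of 0 lie near those shares, so nothing is read from them.

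The background channel gene Kcnk3 was the other member with groups that did not overlap. The gene lies on the plus strand at chr5:30588170-30625271 (mm10, as for the positions below). It had 43.4, 31.1 and 31.8 CPM in WT 1, 2 and 3, against 28.4, 23.0 and 21.4 CPM in knockout 1, 2 and 3. Its highest value was again in WT 1, and the gap between WT 2 and knockout 1 was narrow. The means were 35.4 ± 6.92 and 24.2 ± 3.66 CPM (SD, n = 3 each), a knockout mean at 68.5% of WT. Its log2 value was -0.55 ± 0.16 (SE), knockout over WT, and became -0.38 without WT 1 and -0.68 without knockout 1. Kcnk3 per Kcnj8, in CPM per kb, was 0.243 ± 0.0180 in WT and 0.237 ± 0.0357 in the knockout, and these ratios overlapped. The antisense gene Gm9899 shares 229 exon bases with Kcnk3 and was at 0.228 to 0.737 CPM.

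Of the 8 members, then, 2 had all knockout libraries below all WT libraries and 0 had them above. Over all 16654 genes tested, 5.60% had all knockout libraries below and 6.48% above. Since the members were chosen with this comparison known, nothing is read from that count. By edgeR's quasi-likelihood test with Benjamini-Hochberg adjustment over all genes, 0% of genes were called at an adjusted p under 0.05, so no member was called by that test. Without adjustment, 658 higher and 335 lower genes had a p under 0.05, and DESeq2 called 63 higher and 12 lower, 0.450% of the genes. Whether a member is among the DESeq2 calls is not given, since the members were chosen with this comparison known. DESeq2 put Kcnj8 at -0.50 ± 0.12 (SE) on the log2 scale. The median log2 fold change was 0.04 over the 8 members and -0.0022 over all genes tested.

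**Figure D3:**
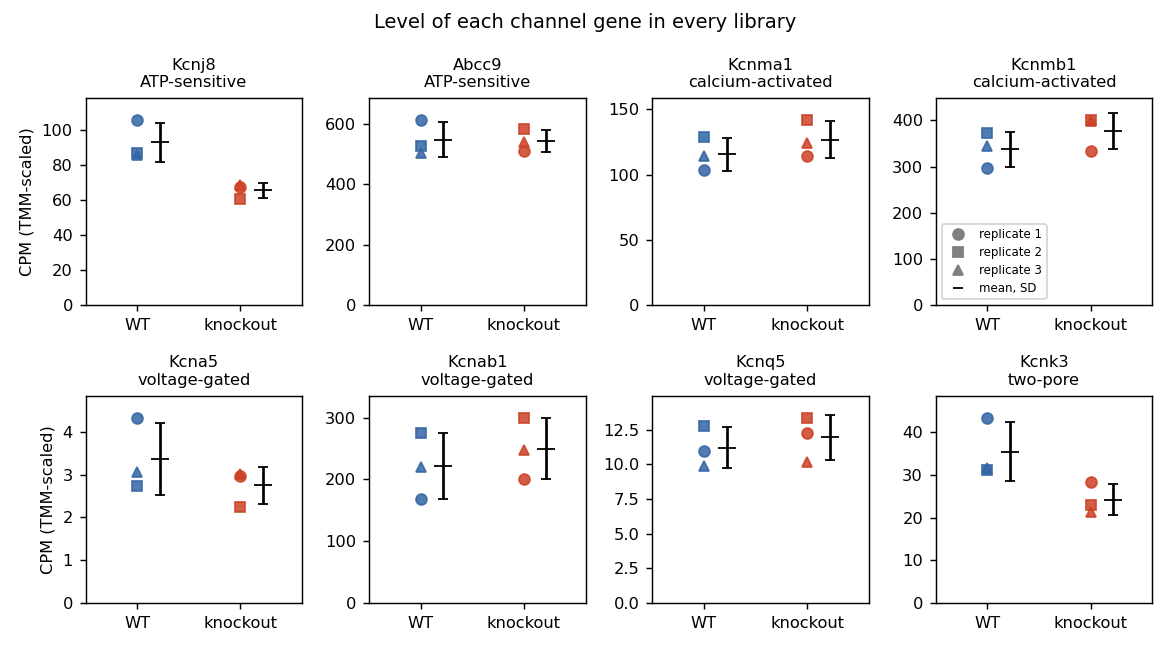
Level of each member in CPM (TMM-scaled) in the 3 WT (blue) and 3 knockout (red) libraries, with symbols for replicates and the mean with SD beside them; each axis starts at 0. The genotypes lie apart for Kcnj8 and Kcnk3 and overlap for the other 6 genes.

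Both subunits of the large calcium-activated channel, Kcnma1 (chr14:23289431-24014491, minus strand) and Kcnmb1 (chr11:33963013-33973641, plus strand), were slightly higher in the knockout on average, with overlapping groups. Kcnma1 had 104, 129 and 114.1 CPM in WT 1, 2 and 3, against 114.2, 142 and 124 CPM in knockout 1, 2 and 3. Kcnmb1 had 297, 372 and 344 CPM in WT, against 333, 400.5 and 398 CPM in the knockout. In both genes WT 1 was the lowest library and knockout 2 the highest. The log2 fold changes were 0.13 ± 0.11 for Kcnma1 and 0.16 ± 0.12 for Kcnmb1 (SE), between 0.05 and 0.22 and between 0.07 and 0.24 with each library left out in turn.

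The accessory subunit kept a near-constant proportion to the pore. Kcnmb1 per Kcnma1, in CPM per kb, was 11.6, 11.7 and 12.2 in WT, against 11.8, 11.5 and 13.0 in the knockout, with means of 11.8 ± 0.329 and 12.1 ± 0.788 (SD, n = 3 each). The size of the ratio depends on the length given to Kcnma1, which was 16976 bases of annotated exon or 12094 bases in the longest transcript. The antisense gene 4930519K11Rik shares 1016 exon bases with Kcnma1. It has no values in the deposited data, so its level is not known here. Of the other accessory subunits listed for this channel, Kcnmb4 and Lrrc38 passed the filter on low counts, with 0.350 ± 0.209 CPM for Kcnmb4 and 0.206 ± 0.159 CPM for Lrrc38 in WT (SD, n = 3).

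The voltage-gated members overlapped between genotypes. They lie at chr3:65109384-65378223 (Kcnab1, plus strand), chr1:21398403-21961942 (Kcnq5, minus strand) and chr6:126532551-126535412 (Kcna5, minus strand). Kcnab1 had 168, 275 and 220 CPM in WT 1, 2 and 3, against 201, 300 and 248 CPM in knockout 1, 2 and 3, a log2 fold change of 0.17 ± 0.21 (SE). Within each genotype it was lowest in replicate 1 and highest in replicate 2, a spread wider than the difference between the genotypes. The log2 value was 0.01 without WT 1 and 0.02 without knockout 2, and it was 0.36 without WT 2 and 0.30 without knockout 1. The antisense genes A330015K06Rik, which shares 201 exon bases with Kcnab1, and Gm26580, which shares 237 with Kcnq5, were at 0.663 to 0.956 and at 0.825 to 1.54 CPM.

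Kcnq5 had 10.9, 12.8 and 9.84 CPM in WT 1, 2 and 3, against 12.3, 13.3 and 10.2 CPM in knockout 1, 2 and 3, with WT 3 and knockout 3 the lowest of their groups. Its log2 fold change was 0.10 ± 0.14 (SE), from 0.0063 to 0.20 with each library left out. Kcna5, the least abundant member, was at 4.32, 2.72 and 3.06 CPM in WT, against 2.98, 2.24 and 3.02 CPM in the knockout. Its values rest on 98 to 471 estimated counts per library, the fewest of the 8 genes. WT 1 stood above the rest, and the log2 fold change of -0.29 ± 0.23 (SE) became -0.08 without WT 1. The cytoplasmic subunit and this pore thus had very unequal levels, with Kcnab1 per Kcna5 in CPM per kb between 13.0 and 44.5 over the 6 libraries. The ratio used 8593 bases of annotated exon for Kcnab1. It would be higher with the 4382 bases of its longest transcript.

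Of the 2 members with a miR-21 match, Kcnmb1 and Kcnq5, both had a mean above WT in the knockout, and both had overlapping groups. Their log2 fold changes are those given above, 0.16 ± 0.12 and 0.10 ± 0.14 (SE). Kcnma1 and Kcnab1, without a match, were above 0 too, as were 8220 of the 16654 genes tested. Of the other tested potassium channel genes with ATAAGCT, Kcne4 (-0.37) and Kcnj15 (-0.03) were below 0 and Kcnk6 (0.15) above.

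The members followed the libraries in different ways. The mean log2 level of 10 smooth muscle markers, relative to its mean over all libraries, was -0.25, 0.14 and -0.08 in WT 1, 2 and 3, against -0.19, 0.22 and 0.16 in knockout 1, 2 and 3. Kcnmb1 and Kcnma1 tracked that mean, departing from it by -0.08 to 0.09 and by -0.11 to 0.11 on the log2 scale. Kcnab1 departed by -0.20 to 0.15. These 3 genes, like the marker mean, had their lowest WT value in WT 1, their lowest knockout value in knockout 1 and their highest value in knockout 2.

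Kcnj8, Kcna5, Kcnk3 and also Abcc9 were highest in WT 1, where the markers were lowest. Abcc9 was at 0.42 relative to the marker mean in WT 1, and its genotypes overlapped on this scale. Kcnq5 was highest in knockout 2 and lowest in WT 3. Relative to the marker mean, Kcnj8 was at 0.69, 0.02 and 0.22 in WT 1, 2 and 3, against -0.02, -0.57 and -0.34 in knockout 1, 2 and 3. The genotypes lay apart on this scale, though by a narrow gap between WT 2 and knockout 1. Kcnk3 relative to the markers was at 0.83, -0.04 and 0.21 in WT, against 0.15, -0.55 and -0.60 in the knockout, and here knockout 1 lay above WT 2, so the genotypes overlapped. The desmin gene Des, 1 of the 10 markers, was at 183, 201 and 190 CPM in WT, against 97.7, 148 and 173 CPM in the knockout, with all knockout libraries below all WT. The other 9 markers had log2 fold changes above 0.

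The adventitial marker sum moved with these values in part. That sum is mostly Lum and Dcn, and the markers did not all share its pattern. Dpt, Pi16, Serpinf1, Clec3b and Dpep1 were lowest in WT 2 and not in knockout 2. Knockout 2 had the lowest adventitial sum and the lowest Kcnj8 and Kcna5, while Kcnk3 was lowest in knockout 3. WT 1 had the highest adventitial sum and the highest level of all 3 genes, and of Abcc9 too. Knockout 1 had a higher adventitial sum than WT 2 (5343 against 2940 CPM) and a lower Kcnj8 (67.2 against 87.1 CPM) and Kcnk3 (28.4 against 31.1 CPM), but a higher Kcna5 (2.98 against 2.72 CPM). The part of other cells in these differences was not tested.

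**Figure D4:**
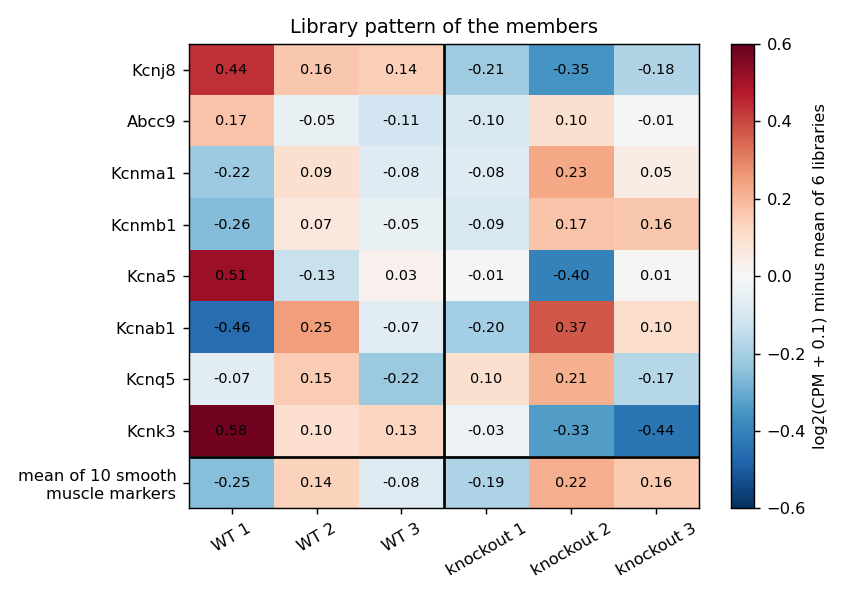
Log2(CPM + 0.1) of each member minus its mean over the 6 libraries, with the same for the mean of 10 smooth muscle markers in the bottom row. Kcnma1, Kcnmb1 and Kcnab1 are negative in WT 1 and positive in knockout 2 like the markers, and Kcnj8 and Kcnk3 are positive in all WT and negative in all knockout libraries.

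Likeness of pattern was measured as the root mean square difference between centred log2 values over the 6 libraries. Kcnma1 and Kcnmb1 were the closest pair of members at 0.0598. Kcnj8 was closest to Kcnk3 (0.143) and Kcna5 (0.176), and farther from its channel partner Abcc9 (0.267). Of the 10575 other genes compared, 54 were closer to Kcnj8 than Kcnk3 was and 3210 were closer than Abcc9 was. A gene equal in all 6 libraries would lie at 0.272 from Kcnj8, near the distance of Abcc9. These distances use the values by which Kcnj8 was chosen, so the genes nearest to it are lower in the knockout by construction. The nearest 5 were Klhl31 (0.0476), Rpl34-ps1 (0.0553), Comtd1 (0.0575), the serine carboxypeptidase gene Scpep1 (0.0762) and the histone gene Hist1h2bc (0.0874). Klhl31, of the Kelch-like family, averaged 16.4 ± 2.22 CPM over WT and 11.7 ± 0.818 CPM over knockout libraries, and Scpep1 216 ± 21.01 and 146 ± 18.5 CPM (SD, n = 3 each). Rpl34-ps1 is a pseudogene and Hist1h2bc has close copies, so estimated counts may have been shared among copies there.

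The wider family of potassium channel genes held no called gene. Of 93 other genes listed by family symbol, 60 were in the table and 35 passed the filter, of which 18 had a log2 fold change above 0 and 17 below. Their median was 0.02. By edgeR's quasi-likelihood test 0 of the 35 passed at a Benjamini-Hochberg adjusted p under 0.05 over all genes, with 1 higher and 1 lower at an unadjusted p under 0.05, and DESeq2 and limma-voom called 0 as well. All knockout libraries lay below all WT for 1 of the 35 (Kcne4) and above for 2 (Kcnj11 and Kcnq3), against 5.60% below and 6.48% above over all genes. Among 35 genes a single gene moves such a share widely, so nothing is read from these counts.

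Kcne4 was the second most abundant of these other genes per length, at 23.3 ± 4.07 CPM per kb (SD, n = 6). It had 77.9, 69.7 and 62.5 CPM in WT 1, 2 and 3, against 52.3, 48.7 and 60.9 CPM in knockout 1, 2 and 3. The groups lay apart, with knockout 3 just under WT 3. The log2 value, knockout over WT, was -0.37 ± 0.11 (SE), and its adjusted p by edgeR was 0.780. Kcnk6, whose miR-21 match likewise continues into an A, had a log2 value of 0.15 ± 0.19 (SE), an edgeR adjusted p of 0.923 and overlapping groups, and it was named after its values were seen. Kcnh2, a voltage-gated channel gene best known from the heart, was the most abundant of them at 50.8 ± 4.92 CPM per kb. It averaged 244 ± 36.1 CPM over WT and 248 ± 10.2 CPM over knockout libraries (SD, n = 3 each), with an adjusted p by edgeR of 0.981.

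Kcnq3, which encodes a relative of the Kcnq5 channel and was named after its values were seen, averaged 1.65 ± 0.0800 CPM over WT and 2.47 ± 0.628 CPM over knockout libraries. Its edgeR adjusted p was 0.830. The inward rectifier gene Kcnj15, which also holds ATAAGCT, averaged 61.5 ± 7.98 CPM over WT and 60.1 ± 3.88 CPM over knockout libraries. A further 6 of the most abundant genes per length (Kcnc4, Kcnip4, Kcnd3, Kcnn4, Kcns3 and Kcnj12) had log2 fold changes from -0.33 to 0.24 and adjusted p from 0.866 to 0.995. Single libraries decide the size for Kcnn4, at -1.22 without knockout 1 and -0.01 without knockout 3, and for Kcnc4, at 0.61 without WT 2 and 0.03 without WT 3. Kcnn4, the intermediate calcium-activated channel gene, had the largest SE of these 6, at 16.4, 8.84 and 17.7 CPM in WT, against 22.1, 6.43 and 5.99 CPM in the knockout.

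**Figure D5:**
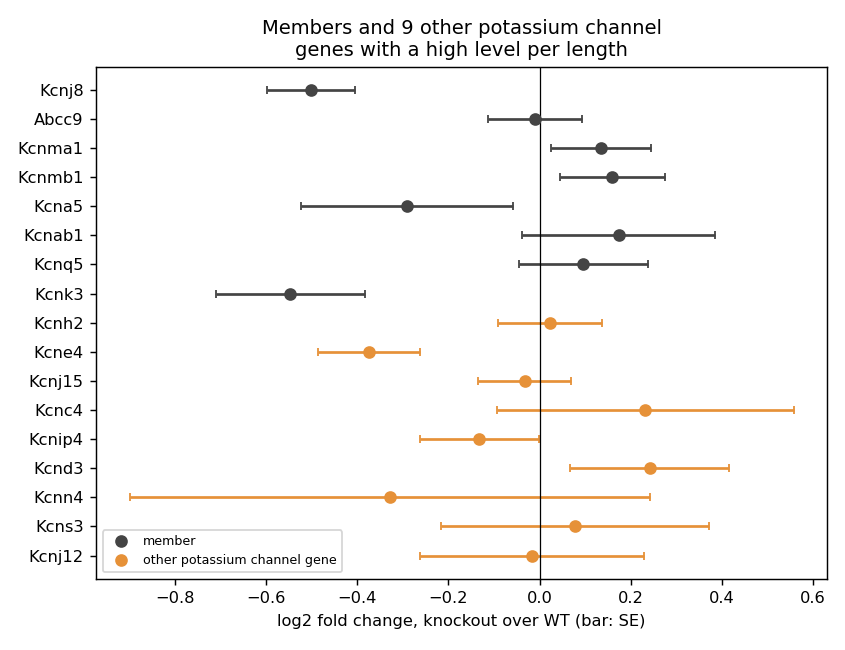
Log2 fold change, knockout over WT, with its SE for the 8 members (grey) and 9 other potassium channel genes with a high level per length (orange). Kcnj8 at -0.50, Kcnk3 at -0.55 and Kcne4 at -0.37 lie farthest below 0 relative to their SE.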

How the data were processed

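Frozen tissue gave 1 ug of total RNA per TruSeq library, per the labels' protocols. The submitters' processing notes list mm10, STAR 2.6 and DESeq2 without saying what each did. The counter is not given in the sources used here, nor are its annotation and strand setting. The authors deposited expected counts per gene, which are not normalized, and 43.6% to 54.3% of a library's values are exactly whole. No pair of replicates agreed within sampling noise (chi-square per gene 30.2 to 109 on average), so all 6 libraries were kept. Unassigned sample columns numbered 0.

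The estimated counts were rounded, filtered with edgeR's filterByExpr (16654 genes), given TMM factors (0.987 to 1.02) and compared by edgeR's robust quasi-likelihood F test (version 4.0.16, R 4.3.3). P-values were two-sided and adjusted over all genes by Benjamini-Hochberg. The script was tested on simulated data, where it recovered 31.3% of the genes changed 1.5-fold and 76.1% of those changed 2-fold. A gene that was not called may therefore still differ. Levels per kb divide CPM by the union of exons of GENCODE M21, matched by position, with table ends taken 1 base lower (21548 genes), or by symbol (1347), with 61 unmatched. A pseudocount of 0.1 CPM was used on the log2 scale. Other settings tried were upper-quartile factors, the size factors of DESeq2, other filters, DESeq2 1.42.0, limma-voom (3.58.1) with sample weights, the replicate number as a block, each library left out, an adjusted p of 0.1 and the longest transcript. Separation of the groups under total counts and with libraries left out was added after seeing the data. Figures used Python 3.11.15 and matplotlib 3.10.9.

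The members and gene lists were chosen with earlier results of these data known. Named genes were the 8 members, the 10 other potassium channel genes with the highest level per length (1 is not reported here), the 4 of each related list with the highest CPM, any listed gene past the threshold and the 5 nearest to Kcnj8 with mean log2 CPM of at least 2, without predicted genes. Promoter windows were found for 7 of 8 members. The markers for cardiac muscle, skeletal muscle, adipocytes, macrophages and nerve each summed to at most 42.9 CPM in any library, and the adipocyte list had 1 of 6 genes in the table.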

Additional observations from a re-analysis of the deposited data

How the results depend on the processing

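Kcnj8 kept its sign under every alternative run, from -0.56 to -0.40 with libraries left out and from -0.51 to -0.47 otherwise, and the count of members with all knockout libraries below all WT was 2 with total counts. With libraries left out, an alternative chosen after seeing the data like total counts, it was 2 to 3. It was 3 without WT 2, where Kcna5 joined and 1 member, Kcnma1, lay above, and 1, Kcnmb1, lay above without knockout 1. The count of genes called was 0 except 75 in the DESeq2 Wald test, 1 (Il33) in the fit with a replicate block and 0 to 1 with libraries left out (1 without knockout 1, Moxd1). No other potassium channel gene was called under any alternative. Whether the replicate numbers pair the samples was not settled. Same-numbered WT and knockout libraries deviated together with correlations of 0.320, 0.357 and -0.0233, and the first 2 were above those of all other pairings. Not every sample correlated best with its own number, as knockout 3 did so with WT 2 (0.134). With the block Kcnj8 was at -0.50. The SE was smaller with the block for every member, at 0.07 against 0.10 for Kcnj8 and 0.05 against 0.21 for Kcnab1.

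Several near-zero log2 fold changes of named genes turned sign, and the cause was not tested. Limma-voom gave 0.025 for Kcnj15, -0.22 for Kcns3 and -0.12 for Piezo1. The block gave 0.024 for Kcnj12 and -0.022 for Piezo1, upper-quartile scaling -0.0087 for Cacna2d1 and -0.0019 for Prkaca, and the filter of 1 CPM 0.0019 for Ano1. With libraries left out in turn the ranges were -0.090 to 0.11 for Kcnh2, -0.10 to 0.078 for Kcnj15, -0.17 to 0.41 for Kcns3, -0.25 to 0.19 for Kcnj12, -0.10 to 0.067 for Ano1, -0.33 to 0.0056 for Pkd2, -0.041 to 0.039 for Cacna2d1, -0.34 to 0.21 for Piezo1, -0.053 to 0.12 for Cavin1, -0.14 to 0.17 for Cav1, -0.016 to 0.13 for Prkacb and -0.078 to 0.087 for Prkaca. Of the other named genes, Kcnn4 moved to -1.22 without knockout 1, -0.01 without knockout 3 and -1.03 with limma-voom, and Kcnc4 to 0.61 without WT 2, 0.03 without WT 3 and 0.49 with limma-voom. Kcna5 rests on the fewest estimated counts of the members, 98 to 471 per library.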

Other observations

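Among channels that carry depolarising current in arterial muscle, the most abundant had means close together in both genotypes and Trpc6, a rare one, did not. Of 15 listed genes 14 were tested, 8 with a log2 fold change above 0 and 6 below, with a median of 0.01, and 0 passed edgeR's quasi-likelihood test at an adjusted p under 0.05. DESeq2 called 0 of them as well, and 1, Trpc6, had an unadjusted edgeR p under 0.05. Ano1, a calcium-activated chloride channel gene, averaged 276 ± 9.96 CPM over WT and 276 ± 31.4 CPM over knockout libraries, and Cacna2d1, a calcium channel subunit gene, 105.0 ± 5.66 and 105.3 ± 3.66 CPM (SD, n = 3 each). Pkd2 and Piezo1 had log2 fold changes of -0.13 ± 0.20 and 0.03 ± 0.29 (SE). All knockout libraries lay below all WT for Trpc6 and above for Trpc1, 1 gene each way of the 14, against 5.60% below and 6.48% above over all genes. Both were named after their values were seen. Trpc6, a receptor-operated cation channel gene, had 1.74, 0.835 and 0.968 CPM in WT 1, 2 and 3, against 0.375, 0.732 and 0.459 CPM in knockout 1, 2 and 3. The log2 difference was -1.16 ± 0.40 (SE), with an adjusted p of 0.800 by edgeR and 0.514 by DESeq2. Trpc1 was at 0.14 ± 0.06 (SE).

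Of 9 kinases and membrane anchors known to act on these channels, 9 had log2 fold changes above 0, as did 8220 of the 16654 genes tested, with a median of 0.07, and 0 passed the edgeR test at an adjusted p under 0.05, with 1 at an unadjusted p under 0.05. The caveolar genes Cavin1 and Cav1 were at 0.04 ± 0.13 and 0.05 ± 0.19, and the catalytic subunits of protein kinase A, Prkacb and Prkaca, at 0.07 ± 0.10 and 0.01 ± 0.10 (SE). All knockout libraries lay above all WT for 1 of the 9 (6.48% over all genes), the protein kinase C gene Prkca, named after its values were seen. It had 23.5, 17.5 and 20.5 CPM in WT 1, 2 and 3, against 31.3, 30.5 and 27.3 CPM in knockout 1, 2 and 3. The log2 difference was 0.53 ± 0.12 (SE), with an adjusted p of 0.682 by edgeR and 0.0312 by DESeq2, where it was the 1 gene of the list called (0.450% over all genes). Its 3′ UTR holds 1 match to the miR-21 seed, ATAAGCT, which 7.07% of all genes searched hold. Of the other genes named from the 2 related lists, Cacna2d1 holds 1 too, at a log2 fold change of 0.0040 ± 0.065 (SE). Nothing is read from the match in Prkca.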
